A study of Mus musculus with 6 samples.

Results

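The 10 genes described here encode ligands, receptors, signal transducers and feedback inhibitors of the TGF-β pathway: Tgfb1, Tgfb2, Tgfb3, Inhba, Tgfbr1, Tgfbr2, Smad2, Smad3, Smad7 and Skil. They were chosen by name, with earlier results of these data known, and all 10 were found among the 48587 genes of the counts table. Total RNA was measured in 4T1 cells, a murine line of triple-negative mammary cancer, in 3 libraries of METTL7A1 cells and 3 libraries of mock cells. METTL7A1 cells stably expressed full-length Mettl7a1 cDNA from the pBICEP-CMV-2 vector, driven by a CMV promoter. Mock cells carried the empty vector according to the study. All cells were grown in serum-containing medium, transfected lines were kept under G418 selection, and no TGF-β treatment is named for these libraries. Whether each transfected line was a pool or 1 clone is not given in the sources used here. The libraries are labelled by replicate number, and the study's methods name biological triplicates per condition. Whether replicates came from separate transfections is not given either. The p-values measure the spread between these libraries. An effect of METTL7A1 and another difference between the transfected lines cannot be told apart.

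TGF-β ligands are secreted in a latent form, bound to LTBP proteins, and are released by integrins and proteases. The active ligand binds the type II receptor TGFBR2, which recruits and phosphorylates the type I receptor TGFBR1, and this kinase phosphorylates SMAD2 and SMAD3. These enter the nucleus with SMAD4 and regulate target genes, among them Smad7 and Skil, whose products restrain the pathway. In normal mammary epithelium TGF-β arrests growth, whereas in carcinoma cells it can promote epithelial-mesenchymal transition and invasion. The study examined METTL7A1 in relation to TGF-β signalling in another mammary line, so the comparison here asks whether the transcripts of the pathway itself differ between METTL7A1 and mock 4T1 cells.

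Library totals lay between 18386780 and 28459338 counts. Mettl7a1 had 6355 to 11358 counts in METTL7A1 libraries and 29 to 30 in mock libraries, so every library followed its label. All 5 epithelial markers (Epcam, Cdh1, Krt8, Krt18 and Krt14) were detected, with a summed level of 1402 to 1714 cpm (counts relative to the TMM-scaled total of the library) in mock and 1419 to 1683 cpm in METTL7A1 cells, although Krt14, a basal keratin, was lower in METTL7A1 cells. Its log2 fold change of METTL7A1 over mock (log2FC) was -1.94 with a standard error (SE) of 0.09. Of 6 fibroblast markers only Pdgfra passed the abundance filter of at least 1 cpm in at least 3 libraries. The fibroblast markers summed to 17.5 to 19.8 cpm in mock and 23.9 to 26.75 cpm in METTL7A1 cells, nearly all of it Pdgfra, with Lum at 0 counts in every library. The 5 leukocyte markers summed to 4.87 to 6.28 cpm in mock and 11.5 to 14.1 cpm in METTL7A1 cells, nearly all of it Cd68, with Cd3e at 0 counts. The 4 endothelial markers summed to less than 1 cpm in each library. The part of these markers in the results below was not tested. In bulk RNA, fewer cells with a transcript and less transcript per cell cannot be told apart.

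Of the 10 genes, 6 differed between METTL7A1 and mock cells at an adjusted p under 0.05 (edgeR quasi-likelihood test, adjusted over all 13166 tested genes), which is termed called below. The share called among all tested genes was 42.1%, so a call by itself was common in this comparison. Inhba, Tgfbr1, Smad2 and Smad3 rose, 4 of 10 against 21.1% of all genes, while Tgfb2 and Tgfb3 fell, 2 of 10 against 21% of all genes. Tgfb1, Tgfbr2, Smad7 and Skil were not called. The libraries of the groups did not overlap for 6 of the 10 genes, compared with 51.6% of all genes. None of the 10 had an adjusted p under 0.01 together with an absolute log2FC over 1.5, the thresholds of the study, which 2.48% of all genes passed. The median log2FC of the 10 genes was 0.09, beside -0.03 over all tested genes.

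**Figure D1:**
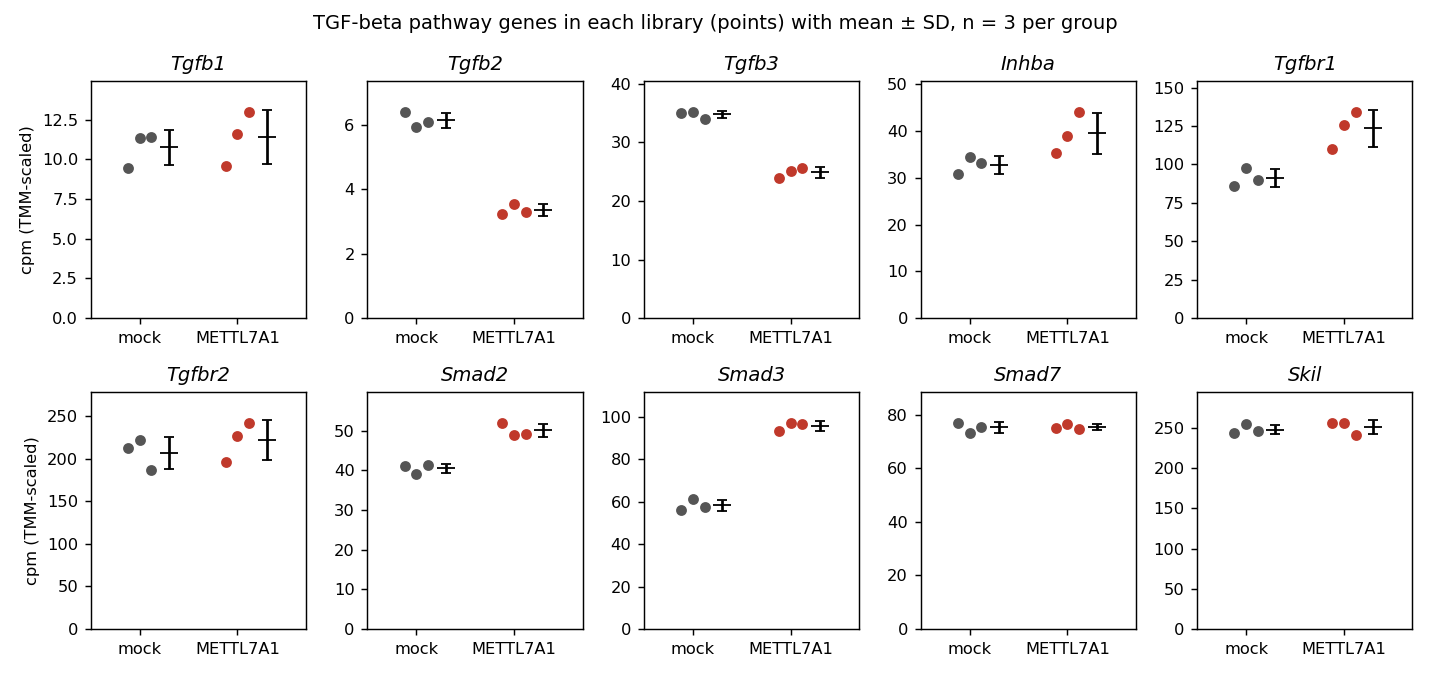
Abundance of the 10 TGF-β genes in cpm on TMM-scaled library sizes, with every axis starting at 0. Points are libraries in the order of their replicate number, and bars give the mean and SD of 3 libraries. The groups are apart for Tgfb2, Tgfb3, Inhba, Tgfbr1, Smad2 and Smad3, and overlap for Tgfb1, Tgfbr2, Smad7 and Skil.

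Among the ligands, Tgfb2 showed the largest change. Tgfb2 (mm10 chromosome 1, 186622792 to 186705989, minus strand) encodes TGF-β2, the isoform known for its need of a co-receptor. It had 117, 144 and 151 counts in mock replicates 1 to 3 and 60, 105 and 81 counts in METTL7A1 replicates 1 to 3. On TMM-scaled library sizes these were 6.4, 5.94 and 6.08 cpm in mock and 3.23, 3.55 and 3.28 cpm in METTL7A1 cells. Each METTL7A1 library was thus well below each mock library. This was a 1.82-fold lower level (log2FC -0.86 ± 0.14 SE, edgeR adjusted p = 0.000675), and the log2FC stayed between -0.91 and -0.82 under all 15 alternative settings.

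Tgfb3 (chromosome 12, 86056744 to 86079041, minus strand), the gene of TGF-β3, also fell. Its level was 35.0, 35.2 and 34.0 cpm in mock replicates 1 to 3 and 23.9, 25.1 and 25.6 cpm in METTL7A1 replicates 1 to 3. The gap between the groups was several times the spread within either. The log2FC was -0.48 ± 0.07 SE (edgeR adjusted p = 0.000374). Its neighbourhood was lowered to the same extent, within a chromosome whose abundant genes had a median log2FC of -0.42. The 40 nearest abundant genes on chromosome 12 had a median log2FC of -0.49, and with this value as an offset the log2FC of Tgfb3 was 0.01 (edgeR adjusted p = 0.923). Tgfb2, in contrast, had neighbours with a median of -0.03 and was still called with the offset (-0.83, edgeR adjusted p = 0.00127).

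Tgfb1 (chromosome 7, 25687002 to 25705077) encodes TGF-β1, the isoform most studied in carcinoma. It had 9.46, 11.3 and 11.4 cpm in mock and 9.59, 11.6 and 12.98 cpm in METTL7A1 replicates 1 to 3. The groups overlapped, and the log2FC of 0.09 was within its SE of 0.13 (edgeR adjusted p = 0.639). Inhba (chromosome 13, 16011851 to 16027211) encodes the βA subunit of activin A, a ligand that acts through its own receptors on SMAD2 and SMAD3. Its level was 30.8, 34.5 and 33.3 cpm in mock and 35.4, 39.04 and 44.1 cpm in METTL7A1 replicates 1 to 3. The lowest METTL7A1 library lay just above the highest mock library. The log2FC of Inhba was 0.27 ± 0.09 SE (edgeR adjusted p = 0.0356). The call was lost without METTL7A1 replicate 2 (0.28, adjusted p = 0.103), without METTL7A1 replicate 3 (0.19, adjusted p = 0.141) and without mock replicate 1 (0.24, adjusted p = 0.107). With the neighbour offset Inhba was called at 0.45 (edgeR adjusted p = 0.0036), since its neighbours had a median of -0.18.

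Per base of exon, Tgfb3 was the most abundant of the TGF-β isoforms in every library. It made up 61.0% to 65.0% of the summed length-scaled level of Tgfb1, Tgfb2 and Tgfb3 in mock and 53.4% to 58.4% in METTL7A1 cells. Tgfb1 took 27.3% to 31.9% in mock and 36.5% to 42.1% in METTL7A1 cells, and Tgfb2 took 6.82% to 7.72% and 4.46% to 5.14%. The ranges of the groups were separate for each isoform, but the shares depend on each other. Tgfb1 itself was not called, and its larger share came with the lower levels of Tgfb3 and Tgfb2. With the neighbour offset Tgfb3 did not fall (log2FC 0.01).

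The type I receptor rose while the type II receptor was not called. Tgfbr1 (chromosome 4, 47353222 to 47414931), the gene of the kinase that phosphorylates SMAD2 and SMAD3, had 86.2, 97.8 and 89.9 cpm in mock and 110, 126 and 134 cpm in METTL7A1 replicates 1 to 3. All METTL7A1 libraries were above all mock libraries. The log2FC was 0.43 ± 0.09 SE (edgeR adjusted p = 0.00191), and it was called whichever library was left out. Its neighbours had a median of -0.01. Tgfbr2 (chromosome 9, 116087698 to 116175363, minus strand), the gene of the ligand-binding kinase, had 212, 222 and 186 cpm in mock and 197, 227 and 242 cpm in METTL7A1 replicates 1 to 3. These ranges overlapped over most of their length. The log2FC of Tgfbr2 was 0.10 ± 0.10 SE (edgeR adjusted p = 0.425), and with the neighbour offset it was 0.27, at the edge of the threshold (edgeR adjusted p = 0.0498).

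Smad3 had the smallest p of the 10 genes. Smad3 (chromosome 9, 63646767 to 63757994, minus strand) encodes the receptor-activated SMAD that binds DNA directly. It had 56.3, 61.4 and 57.4 cpm in mock and 93.2, 97.3 and 96.8 cpm in METTL7A1 replicates 1 to 3. Each METTL7A1 library stood far above each mock library. The log2FC was 0.71 ± 0.07 SE (edgeR adjusted p = 1.4e-05), a 1.64-fold higher level, and the alternative settings gave 0.70 to 0.81. Its neighbours had a median of -0.10. The tested genes whose log2 cpm followed Smad3 most closely over the 6 libraries were Ephx1, Nid1 and Zfp217, each with a Pearson r of 0.999. These 6 points fall into the groups of the study, so any gene with a similar difference between the groups has a high r.

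Smad2 (chromosome 18, 76241580 to 76305731), the partner of Smad3 in the pathway, rose less. Its level was 41.1, 39.1 and 41.3 cpm in mock and 52.0, 49.0 and 49.2 cpm in METTL7A1 replicates 1 to 3, with no overlap. The log2FC was 0.31 ± 0.07 SE (edgeR adjusted p = 0.00411). As with Tgfb3, its neighbourhood moved with it, and the abundant genes of chromosome 18 as a whole had a median log2FC of 0.34. The median of the 40 neighbours on chromosome 18 was 0.35, and with the offset Smad2 was at -0.05 (edgeR adjusted p = 0.641).

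The feedback inhibitors were not called. Smad7 (chromosome 18, 75367529 to 75395935) encodes the inhibitory SMAD that blocks and degrades TGFBR1. It had 77.1, 73.3 and 75.6 cpm in mock and 74.9, 76.8 and 74.8 cpm in METTL7A1 replicates 1 to 3. The libraries overlapped fully, and the log2FC was 0.0039 ± 0.06 SE (edgeR adjusted p = 0.967). Smad7 shares its region with Smad2, and its neighbours also had a median of 0.35. Relative to them it was lower, at -0.35 with the offset (edgeR adjusted p = 0.00163). Skil (chromosome 3, 31095058 to 31122577) encodes SnoN, a repressor that binds SMAD complexes and is degraded on TGF-β signalling. It had 244, 255 and 246 cpm in mock and 256, 257 and 242 cpm in METTL7A1 replicates 1 to 3. The log2FC of Skil was 0.02 ± 0.07 SE (edgeR adjusted p = 0.851), and 0.07 with the offset (edgeR adjusted p = 0.489).

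**Figure D2:**
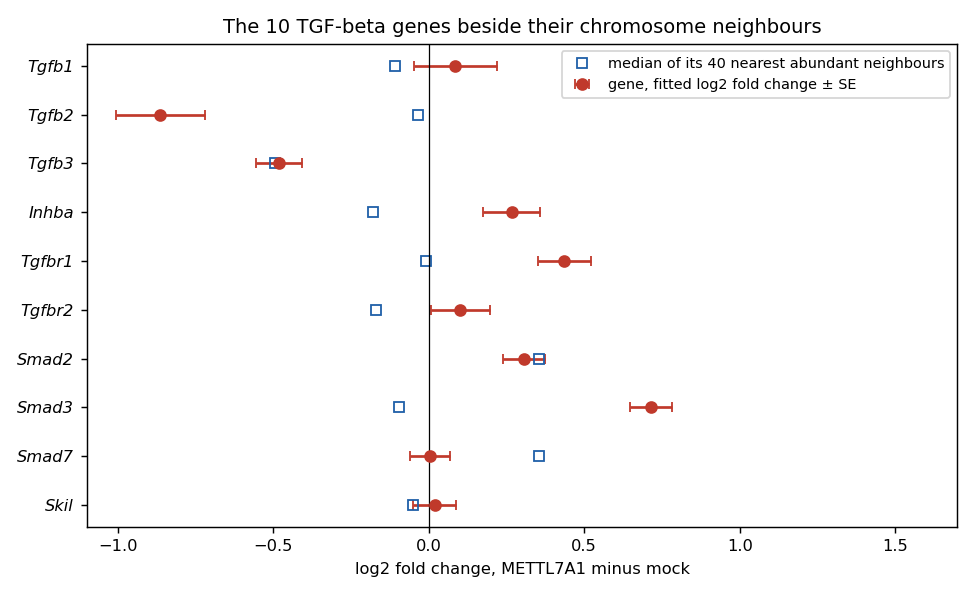
Log2 fold change of each of the 10 genes (circles, with SE) beside the median log2FC of its 40 nearest abundant neighbours on the chromosome (squares). Circle and square coincide for Tgfb3 and Smad2, whereas Smad3, Tgfbr1 and Tgfb2 stand away from neighbours near 0, and Smad7 stays at 0 beside neighbours at 0.35.

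The sequences before the start sites of Tgfb2 and Smad3 are given because these genes had the largest fall and the largest rise of the 10. Both are the 250 bases before the RefSeq start on GRCm38.p6, 5′ to 3′ on the gene's strand, and both starts coincide with the gene ends in the counts table. They cover chr1:186705990-186706239 for Tgfb2 and chr9:63757995-63758244 for Smad3, each on the minus strand. Capitals mark CAGAC, the core bound by SMAD3 and SMAD4, or its complement GTCTG, and the TATA motif TATAAA or its complement TTTATA. No match of the SMAD core overlapped a TATA motif.
Tgfb2: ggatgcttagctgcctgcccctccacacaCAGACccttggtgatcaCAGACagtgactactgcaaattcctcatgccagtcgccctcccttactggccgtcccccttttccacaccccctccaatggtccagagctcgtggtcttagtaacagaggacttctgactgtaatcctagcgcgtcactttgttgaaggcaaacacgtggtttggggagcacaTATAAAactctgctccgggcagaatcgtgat
Smad3: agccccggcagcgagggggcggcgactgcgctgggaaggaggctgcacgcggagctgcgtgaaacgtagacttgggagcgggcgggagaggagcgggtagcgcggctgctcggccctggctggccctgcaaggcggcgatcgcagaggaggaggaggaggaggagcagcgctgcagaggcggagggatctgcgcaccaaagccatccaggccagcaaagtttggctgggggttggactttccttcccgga

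The Tgfb2 sequence held 2 SMAD cores, 221 and 204 bases before the start, and a TATA motif 31 bases before it. The Smad3 sequence held neither. Of 32851 promoter entries of the same length 42.2% held a SMAD core and 12.4% a TATA motif, so a core in this window is common. The sequences also differed in composition, with 53.6% G and C for Tgfb2 and 69.2% for Smad3, against a median of 52.4% over all entries. Entries were found for 6 of the 10 genes. Among the others, Tgfbr2 had 1 core, Inhba had a TATA motif and no core, and Tgfb1 had neither, nor did Tgfbr1 at its main start.

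The order of the levels per kilobase of exon was the same at both ends in the groups and shifted in the middle. In mock cells it ran from Tgfbr2 (43.3 ± 3.87 cpm per kb, SD, n = 3) and Skil (36.9 ± 0.853) over Smad7 (17.2 ± 0.436), Inhba (16.6 ± 0.967), Tgfbr1 (14.2 ± 0.922), Smad2 (12.04 ± 0.358), Smad3 (11.5 ± 0.522) and Tgfb3 (10.3 ± 0.186) down to Tgfb1 (4.94 ± 0.513) and Tgfb2 (1.18 ± 0.0448). The ranges of Smad7 and Inhba overlapped, as did those of Smad2 and Smad3. In METTL7A1 cells Tgfbr2 (46.4 ± 4.88 cpm per kb) and Skil (37.4 ± 1.23) were followed by Inhba (19.96 ± 2.21), Tgfbr1 (19.2 ± 1.89) and Smad3 (18.8 ± 0.442), with overlap between Inhba and Tgfbr1 and between Tgfbr1 and Smad3. Smad7 (17.2 ± 0.253), Smad2 (14.9 ± 0.501), Tgfb3 (7.34 ± 0.265), Tgfb1 (5.24 ± 0.783) and Tgfb2 (0.646 ± 0.0332) followed, each separate from the next. Smad3 thus went from the seventh place to the fifth, above Smad7 and Smad2.

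Ratios between the genes within a library do not depend on how libraries are scaled. Smad7 was 1.39 to 1.59 times as abundant as Smad3 per base of exon in mock and 0.898 to 0.934 times in METTL7A1 cells, a difference in the log2 ratio of -0.71. The ratio of Skil to Smad3 went from 3.14 to 3.28 in mock to 1.89 to 2.08 in METTL7A1 cells, a difference of -0.70. Smad7 and Skil were thus less abundant relative to Smad3 in each METTL7A1 library than in any mock library. The log2 ratio differed by -0.41 for Smad2 to Smad3, by -0.95 for Tgfb2 to Tgfb1 and by -0.56 for Tgfb3 to Tgfb1. It differed by 0.33 for Tgfbr1 to Tgfbr2, where the METTL7A1 libraries lay within 0.413 to 0.418 and the mock libraries within 0.303 to 0.360. The groups were separate for all 6 ratios. For single genes they were apart in 51.6% of those tested, and no such share was taken for ratios. The ratios are not independent, since several share Smad3 or Tgfb1. Smad7 and Skil themselves were not called, so their ratios to Smad3 restate the rise of Smad3. Each exact permutation test, two-sided, gave p = 0.1, the smallest that 3 libraries against 3 allow (also 0.1 adjusted over the 6 ratios).

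**Figure D3:**
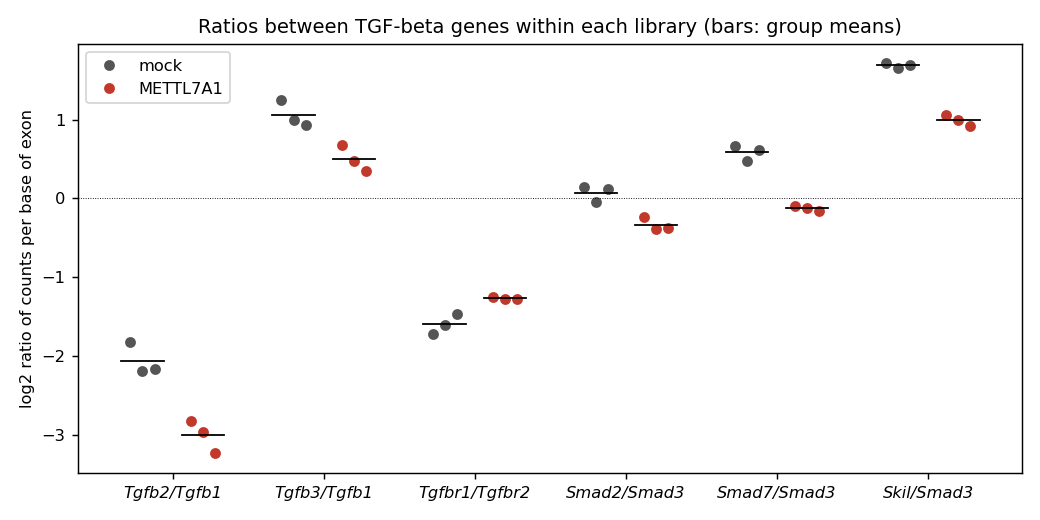
Log2 ratio of counts per base of exon for 6 pairs of TGF-β genes. Points are libraries and bars are group means of 3 libraries. For Smad7 to Smad3 the mean is 0.59 in mock and -0.13 in METTL7A1 cells, and no ratio has overlapping groups.

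The other genes of the pathway were taken from 6 lists, also chosen with earlier results of these data known, and moved in both directions. Of 79 genes in all, 54 passed the abundance filter and 29 of these were called (53.7%, beside 42.1% of all genes), 17 higher and 12 lower, with a median log2FC of 0.02. None passed the thresholds of the study. With the neighbour offset 26 were called, and 21 of the 29 kept their call and direction. The other 25 genes were under the filter, with at most 45 counts in any library.

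Genes that hold ligands latent or release them were called in 5 of 10 tested cases (50%, beside 42.1% of all genes), 4 higher and 1 lower. Mmp9, a secreted gelatinase able to release TGF-β, rose by a log2FC of 0.95 (SE 0.11). The integrin subunits Itgb5 and Itgav, which pair to bind latent TGF-β, rose by 0.73 (SE 0.10) and 0.51 (SE 0.09), and Ltbp3, a latent TGF-β binding protein, by 0.42 (SE 0.08). All 4 were called in each fit with a library left out and with the neighbour offset, where they were at 0.72, 0.55, 0.35 and 0.43. Ltbp4, of the same family as Ltbp3, was lower by a log2FC of -0.28 (SE 0.10), a call kept in 2 of 6 fits with a library left out, and lost without the 20 most abundant genes (-0.26) and with the offset (-0.09). Thbs1, an abundant extracellular activator of TGF-β, had 0.26 (SE 0.11, edgeR adjusted p = 0.0795). It was called as higher with DESeq2 (DESeq2 adjusted p = 0.00601), upper quartile scaling, no abundance filter and without the 20 most abundant genes. The other alternatives did not call Thbs1, and with the offset it was at -0.09.

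Of the 9 related ligands only Inhbb and Gdf11 were tested. Inhbb, the gene of the activin βB subunit, had 2.35, 1.53 and 1.65 cpm in mock and 3.13, 4.06 and 4.42 cpm in METTL7A1 replicates 1 to 3. It rose by a log2FC of 1.10 (SE 0.23, edgeR adjusted p = 0.00266). Gdf11 was lower by a log2FC of -0.24 (SE 0.07, edgeR adjusted p = 0.0193), and by -0.68 with the neighbour offset. Its call was lost without METTL7A1 replicate 2, mock replicate 1 or mock replicate 2, with the replicate block (edgeR adjusted p = 0.0543) and without an abundance filter (-0.21, edgeR adjusted p = 0.157). Inha, Inhbc, Inhbe and Mstn had 0 counts in every library, so that 3 counts, the limit a count of 0 allows, put their level under 0.102 to 0.164 cpm (counting error only).

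The activin antagonists moved in opposite directions. Fst, which encodes follistatin, had 2.02, 3.59 and 2.25 cpm in mock and 0.916, 1.12 and 0.973 cpm in METTL7A1 replicates 1 to 3. This was the lowest log2FC among the tested pathway genes, -1.38 (SE 0.27, edgeR adjusted p = 0.00188). METTL7A1 replicates 1 and 3 were under 1 cpm, so Fst passed the abundance filter through the mock libraries, where it was higher. Fstl3, which encodes a related activin-binding protein, had 12.9, 10.6 and 10.9 cpm in mock and 14.98, 20.7 and 22.5 cpm in METTL7A1 cells, a log2FC of 0.77 (SE 0.15, edgeR adjusted p = 0.00162). Both kept their calls in every fit with a library left out and with the offset, at -1.32 and 0.45. Bambi, a decoy receptor, and Dcn and Bgn, proteoglycans that bind TGF-β, were under the filter.

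Of 7 other receptors and co-receptors tested, 3 were called (42.9%, close to the 42.1% of all genes), all higher, although the count was 1 without METTL7A1 replicate 2 and 1 without mock replicate 1. Vasn, which encodes a membrane protein that traps TGF-β, rose by a log2FC of 0.88 (SE 0.12), also with the neighbour offset (0.73). Cd109, a TGF-β co-receptor that restrains signalling, was higher by 0.49 (SE 0.17, edgeR adjusted p = 0.0408), a call kept in 2 of 6 fits with a library left out. Acvr1b, the type I activin receptor, was higher by 0.38 (SE 0.11), a call kept in 3 of 6 fits with a library left out and lost with the offset (0.07). The co-receptors Tgfbr3 and Eng and the type II activin receptor Acvr2b had log2FCs of -0.26 (SE 0.16), 0.05 (SE 0.08) and 0.14 (SE 0.17) and were not called.

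Among 18 tested SMAD partners and regulators 10 were called (55.6%, beside 42.1% of all genes), 5 higher and 5 lower. Dab2, which encodes an adaptor that links the receptors to SMADs, had 11.8, 13.7 and 15.5 cpm in mock and 32.5, 32.2 and 32.6 cpm in METTL7A1 replicates 1 to 3, a log2FC of 1.24 (SE 0.10, edgeR adjusted p = 4.57e-06). Sik1, a TGF-β-induced kinase that promotes turnover of TGFBR1, had 41.5, 38.1 and 31.9 cpm in mock and 79.9, 84.9 and 87.8 cpm in METTL7A1 cells, a log2FC of 1.18 (SE 0.09, edgeR adjusted p = 4.11e-06). With the offset they were at 1.39 and 0.92 and still called. Smad4, the shared partner of SMAD2 and SMAD3, rose by 0.51 (SE 0.07), beside neighbours on chromosome 18 with a median of 0.37, and was not called with the offset (0.14, edgeR adjusted p = 0.127). The phosphatase gene Ppm1a and the ubiquitin ligase gene Smurf1 fell, with a log2FC of -0.43 (SE 0.08) and -0.41 (SE 0.07), each beside neighbours lowered to a similar extent (-0.49 and -0.36), and neither was called with the offset (0.06 and -0.05). Usp4, which encodes a deubiquitinase of TGFBR1, fell too, with a log2FC of -0.34 (SE 0.07), and kept its call with the offset (-0.20).

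Of 22 TGF-β target genes 15 were tested and 7 were called, 3 higher and 4 lower, with a median log2FC of -0.06. This share of 46.7% was close to the 42.1% of all genes. Bhlhe40, which encodes a transcription factor, rose from 81.1, 82.1 and 82.9 cpm in mock to 152, 153 and 159 cpm in METTL7A1 replicates 1 to 3, a log2FC of 0.92 (SE 0.06, edgeR adjusted p = 1.65e-06). Cdkn1a, which encodes the cell cycle inhibitor p21, rose by 0.60 (SE 0.15), and Cyr61, a matricellular gene, by 0.32 (SE 0.08). Ltbp2, an extracellular matrix gene, went from 476, 418 and 400 cpm in mock to 237, 223 and 197 cpm in METTL7A1 cells, a log2FC of -0.98 (SE 0.10, edgeR adjusted p = 1.96e-05), and was at -0.50 with the offset, beside neighbours on chromosome 12 with a median of -0.48. Timp1, a protease inhibitor gene, and Adam19, a metalloprotease gene, fell, with a log2FC of -0.50 (SE 0.12) and -0.40 (SE 0.07). Ctgf, a widely used readout of the pathway that is named here after its values were seen, had a log2FC of -0.16 (SE 0.08, edgeR adjusted p = 0.135), and with the offset it was called as higher, at 0.26 (edgeR adjusted p = 0.0261).

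**Figure D4:**
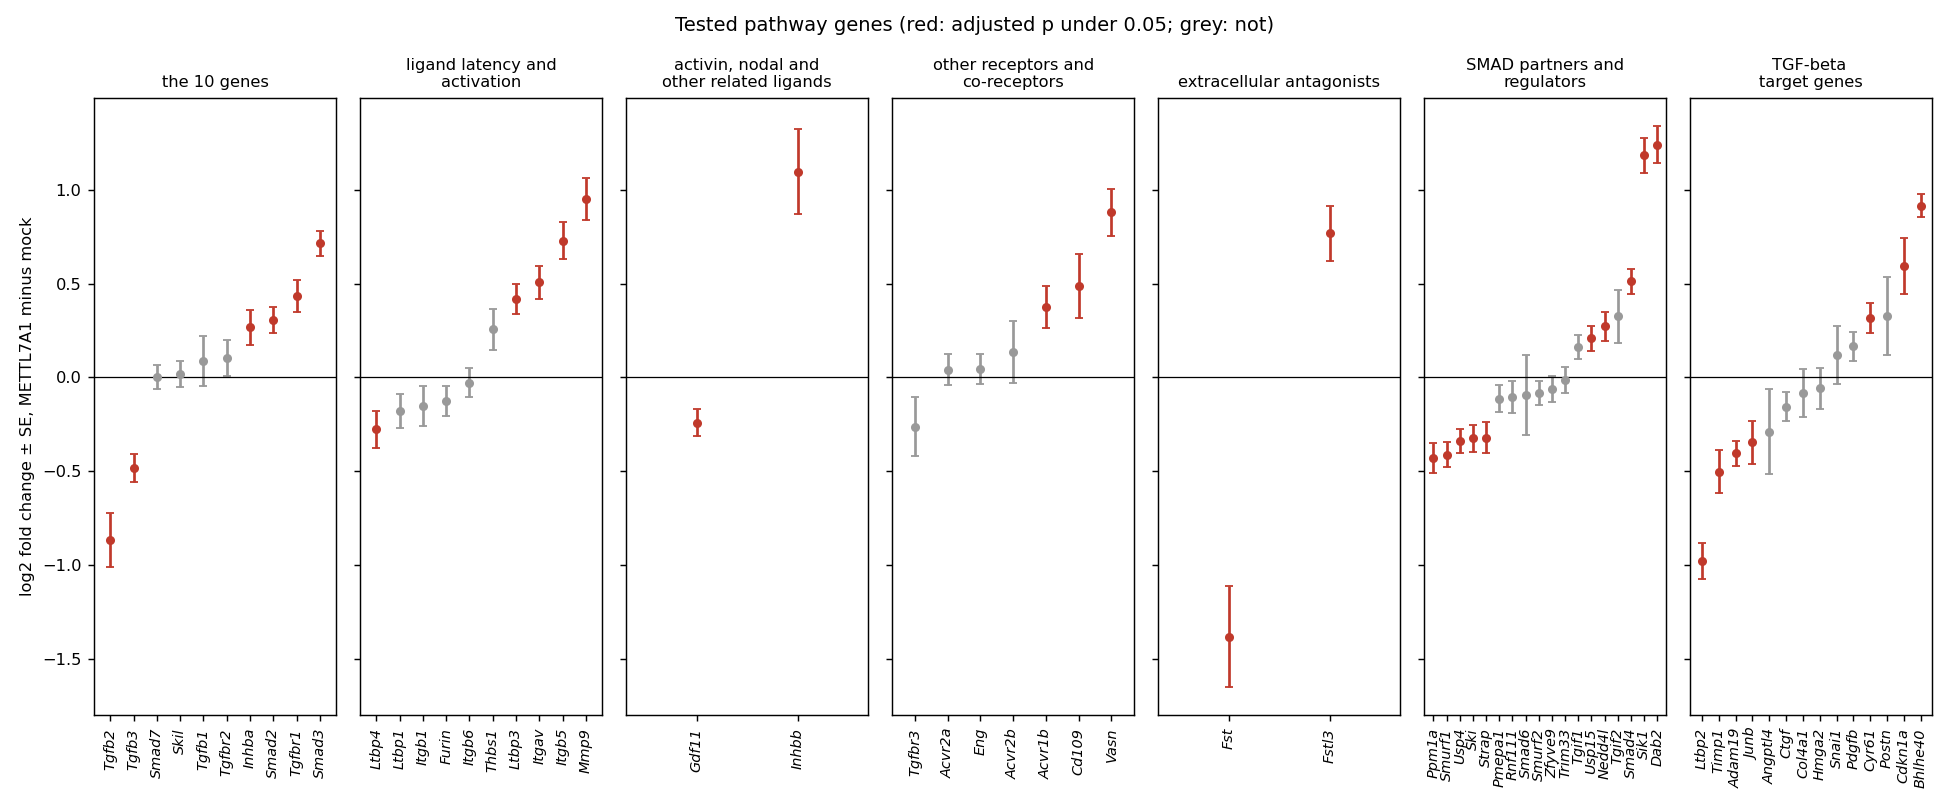
Log2 fold change with SE of the 10 genes and of tested genes of the 6 other lists, ordered by value within each list, with 1 uncalled target gene not shown. Red marks an adjusted p under 0.05 and grey the rest. Each list other than the receptors holds called genes on both sides of 0, from Fst at -1.38 to Dab2 at 1.24.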

How the data were processed

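The authors trimmed reads with BBDuk, aligned pairs to mm10 with STAR 2.5.3a and deposited raw counts per gene from featureCounts. Per the file headers, the exon length of each gene in bases is another listed value. How strand and multiply mapped reads were counted is not given in the sources used here. The exons of Tgfb2 and Tgfb3 overlap opposite-strand genes with at most 8 counts, and at most 1.79% of the 31-base stretches of any of the 10 genes occur in another gene. In the lists, opposite-strand exons cover 59.2% of Fstl3 (Prss57, at most 11 counts) and 22.9% of Ctgf.

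Counts were tested in R 4.3.3 with edgeR 4.0.16 (glmQLFit and glmQLFTest, TMM factors, no covariate) across all 13166 genes with at least 1 cpm in at least 3 libraries, with Benjamini-Hochberg adjustment. Called means an adjusted p under 0.05. The SE was taken from the log2 fold change and its F statistic, as their quotient with F square-rooted. Abundant neighbours are the 40 nearest genes with an average log2 cpm over 2. Chromosome medians are over all genes of the chromosome above the same level. The median log2 fold change of the 40 neighbours entered the offset fit as a known value, without its own error. Pearson r used log2(cpm + 0.5). Alternatives were the neighbour offset, upper quartile or RLE scaling, all genes unfiltered, at least 10 counts in every library, DESeq2 1.42.0, limma voom 3.58.1, the replicate block, each library left out and removal of the 20 most abundant genes. Of these, only the edgeR test without offset or replicate block was tried on simulated data, with the outcome not reported here.

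The 10 genes and all lists were chosen with earlier results of these data known. Named list genes are up to 6 per list with the smallest p. Pmepa1, Hmga2, Usp15, Nedd4l, Junb and the target genes under the filter were also named after their values were seen. No per-sample column was left out. Some genes of the lists enter the counts but are not reported here by name.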

Additional observations from a re-analysis of the deposited data

How the results depend on the processing

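The count of 6 called TGF-β genes was 5 or 6 under all 15 alternatives, 5 to 6 with a library left out. The genes behind this count changed with the neighbour offset. It also gave 6 calls, but 4 of the 6 genes kept theirs. Tgfb3 and Smad2 lost their calls, while Tgfbr2 was called as higher and Smad7 as lower. Among the other pathway genes 23 to 31 were called, 23 to 30 with a library left out. The count of all genes past the study thresholds, 326, was 710 without an abundance filter, 205 with at least 10 counts in every library, 1749 at 1.5-fold on the linear scale, and 243 to 282 with a library left out. These settings change the genes tested, the threshold or the number of samples. The neighbour offset changed most among the 10 genes: Tgfb3 went to 0.0117, Smad2 to -0.0475, Smad7 to -0.35 and Tgfbr2 to 0.27. With the offset Thbs1 was at -0.0908, Nedd4l at -0.0256, Ppm1a at 0.0605, Usp15 at -0.27 and Ctgf at 0.26, all opposite in sign to the fit without it. Smad4, Smurf1, Ltbp4, Acvr1b, Nedd4l, Ppm1a and Junb lost their calls, and Pmepa1 (-0.26), Hmga2 (-0.49) and Ctgf were among those that gained one. What moved these neighbourhoods, or chromosomes 12 and 18 as a whole, was not tested.

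With a library left out, Inhba ranged from 0.19 to 0.35 and was called in 3 of 6 fits. Tgfb1 ranged from -0.01 to 0.20, Smad7 from -0.0193 to 0.0357, Eng from -0.0047 to 0.11 and Hmga2 from -0.14 to 0.10, none of them called. Smad7 was at -0.0113 without METTL7A1 replicate 2 and -0.0193 without mock replicate 2, Tgfb1 at -0.0105 without METTL7A1 replicate 3, and Hmga2 at 0.099 without mock replicate 3. Smad3, Tgfb2, Tgfb3, Tgfbr1 and Smad2 were called in all 6 fits.

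Replicate numbers gave no clear sign of pairing. The correlation between libraries sharing a number, after removal of the group means, was -0.16, 0.23 and -0.39 for the 3 numbers. METTL7A1 replicate 2 correlated best with mock replicate 2, the other METTL7A1 replicates with another number. With 3 libraries per group these values cannot exclude that replicates were paired. With the replicate block all 6 TGF-β genes kept their calls, 27 other pathway genes were called (Gdf11 and Usp15 lost theirs), and 4810 genes were called in all instead of 5537.

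Tgfb2 had the fewest counts of the 10 genes, 60 to 151 per library, Fst had 17 to 87, and the 25 pathway genes under the filter were not tested.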

Other observations

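Of the 7 target genes under the abundance filter, 5 had counts. Il11, a cytokine gene induced by TGF-β in carcinoma cells, had 19, 43 and 45 counts in mock replicates 1 to 3 and 18, 14 and 14 counts in METTL7A1 replicates 1 to 3. Tagln, an actin-binding target gene, had 12, 13 and 6 counts in mock and 3, 6 and 4 counts in METTL7A1 replicates 1 to 3. Col1a1, the gene of a collagen I chain, had 22, 11 and 16 counts in mock and 9, 17 and 11 counts in METTL7A1 replicates 1 to 3. Tgfbi had 2, 3 and 5 counts in mock and 0, 5 and 7 counts in METTL7A1 cells, and Acta2 had 4, 1 and 7 counts in mock and 1, 4 and 2 counts in METTL7A1 cells. Scaled to library size, the groups were narrowly apart for Il11 and Tagln and overlapped for Col1a1, Tgfbi and Acta2. Il11 was at 1.04 cpm in mock replicate 1 and 0.97 cpm in METTL7A1 replicate 1. Tagln was at 0.242 cpm in mock replicate 3 and 0.203 cpm in METTL7A1 replicate 2. At such counts this gap is small, and the groups were apart for 51.6% of all tested genes. Cdkn2b and Lmcd1 had 0 counts in every library. These genes were under the filter and so were not tested in the fit that gave the calls. Col1a1 also counted among the fibroblast markers above, and genes with counts entered the fit without an abundance filter.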
